A study of Mus musculus with 14 samples.

Results

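The genes described here encode the proteasome, its assembly factors and its regulators. Members were the probe sets whose platform gene symbol begins with Psm, a letter from a to g and a digit, without the immunoproteasome genes Psmb8 and Psmb9 and without pseudogene symbols. The rule found 46 genes among the 24675 that the platform annotation names by 1 symbol. Each sample of sorted mouse crypt cells was hybridised to 1 Affymetrix Mouse Gene 2.0 ST array, and 14 arrays formed 4 groups: 3 of Atg7KO EGFP high cells, 3 of WT EGFP high cells, 4 of Atg7KO EGFP low cells and 4 of WT EGFP low cells.

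All mice carried Lgr5-EGFP-IRES-CreERT2, which places EGFP and a tamoxifen-activated Cre recombinase under control of the stem cell gene Lgr5. Atg7KO mice were in addition Atg7 fl/fl, so that Cre can remove Atg7, the enzyme that starts the conjugation reactions of autophagy. Both genotypes were given tamoxifen for 5 days in a row, and tissue was taken 1 month after treatment. Age and sex are not given in the labels. Small intestine or colon is not specified, only intestinal tissue. Cells with low CD24 from individual mice were sorted by EGFP, the high gate being labelled as stem cells and the low gate as their transit amplifying progenitors. Cre acts where Lgr5 is on, so an EGFP low cell is deleted only through descent from a cell in which Cre acted. From each sample 1 ng of total RNA was amplified before hybridisation. Samples are named by group and title number, as in WT-High-411.

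The proteasome degrades proteins that carry ubiquitin chains. Its barrel-shaped core consists of outer rings of alpha subunits, which control entry, and inner rings of beta subunits, some of which cut peptide bonds. A regulatory particle caps the core: its base holds a ring of ATPases that unfold substrates, and its lid removes ubiquitin. Dedicated chaperones build both parts. Autophagy is the other main route of protein disposal in the cell, and interferon replaces some beta subunits to form the immunoproteasome. In cultured mammalian cells the transcription factor Nfe2l1 raises proteasome genes together when the proteasome is inhibited.

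Because the subunits form one complex, the promoters were searched for 2 motifs. The first was the antioxidant response element core TGACNNNGC, which Nfe2l1 and Nfe2l2 recognise, and the second was the CCAAT box. Sequences came from RefSeq on build GRCm38.p6 and ran from 250 bases before to 50 bases after each annotated start. At least 1 promoter was found for 38 of the 46 members, 42 promoters in all. Both strands were read. TGACNNNGC was present in 5 of the 42 member promoters (11.9%), against 4071 of 32851 promoters in the table (12.4%). CCAAT was present in 14 of the 42 (33.3%), against 12289 of 32851 (37.4%). Neither share was above that of all promoters. A match is a description of letters and not a bound site. The windows below show the promoters of 3 genes lower in knockout EGFP high than in knockout EGFP low cells (Psma1, Psmc2 and Psmd12), and of 2 other genes with a TGACNNNGC match, the catalytic subunit gene Psmb6 and the activator gene Psme4. They are written 5′ to 3′ on the gene's strand, with the matched letters in capitals. A match on the opposite strand appears as its reverse complement.
Psma1: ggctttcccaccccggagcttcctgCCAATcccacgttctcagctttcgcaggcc
Psmc2: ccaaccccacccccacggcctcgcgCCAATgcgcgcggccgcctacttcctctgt
Psmd12: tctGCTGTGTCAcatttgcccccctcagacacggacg
Psmb6: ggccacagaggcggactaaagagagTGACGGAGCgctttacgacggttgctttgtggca
Psme4: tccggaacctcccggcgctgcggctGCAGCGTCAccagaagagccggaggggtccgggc
The windows lie at chr7:114276185-114276239 on the minus strand for Psma1, and on the plus strand at chr5:21785222-21785276 for Psmc2, chr11:107479278-107479314 for Psmd12, chr11:70525323-70525381 for Psmb6 and chr11:30771743-30771801 for Psme4. The other members with a TGACNNNGC match were Psmc6 and Psmd9. Psmd1, Psmd2, Psmd8 and Psmf1, which passed the test between the knockout gates given below, had no match to either motif. No capitalised match in these windows overlaps a match of the other motif.

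Values are log2 of the authors' normalized signal, so a difference of 1 is a 2-fold difference. Of the 46 members, 43 were tested, which required a value at or above the 40th percentile of its array in 3 or more arrays. The alpha subunit gene Psma5 read 2.37 to 3.69 over the 14 arrays. The testis alpha subunit gene Psma8 read 3.08 to 3.72, and the thymus beta subunit gene Psmb11 read 3.22 to 3.83. None of these 3 reached the percentile on any array. The beta subunit genes Psmb3 and Psmb5, of which Psmb5 is a catalytic one, and the activator gene Psme2b are not analysed here. The tested members were 6 alpha and 5 beta subunits of the core rings, Psmb10, 6 ATPases and 3 other base subunits, 8 lid subunits, 7 assembly chaperones and 5 activators or inhibitors. When all tested genes were split by mean level into 5 bins of equal size, 35 of the 43 members lay in the top bin of 3175 genes. Shares are therefore given for that bin as well as for all genes. Psmc3ip, a recombination factor, and Psme3ip1, a protein that binds Psme3, match the rule by name but are not subunits.

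Atg7 read 6.37, 6.13 and 5.91 in Atg7KO-High and 6.77, 6.76 and 6.83 in WT-High arrays. In the EGFP low gate it read 6.06, 5.78, 5.65 and 6.05 in Atg7KO-Low, against 6.92, 6.77, 7.49 and 6.46 in WT-Low. The genotypes did not overlap in either gate, but the differences of -0.65 (SE 0.22) and -1.02 (SE 0.19) had limma adjusted p of 0.208 and 0.166. The deleted exon is not named in the labels, and how many Atg7 probes lie in it is not known here. Lgr5 was higher in the EGFP high gate by 3.32 in knockout and 3.52 in WT (limma adjusted p = 0.000138 and 0.000247). The spread of all values on an array, its SD, was 1.90 to 1.98 in Atg7KO-High and 1.99 to 2.06 in WT-High arrays. It was 1.98 to 2.04 in Atg7KO-Low and 1.90 to 2.06 in WT-Low arrays, with the lowest values on Atg7KO-High-356 and WT-Low-411. The leukocyte genes Ptprc and Cd79a, the tuft cell gene Dclk1 and the stromal genes Col3a1 and Pdgfra did not reach the level needed for a test.

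The first comparison asked how proteasome genes differed between Atg7KO and WT cells of the EGFP high gate. Most read lower in the knockout, and by their medians the regulatory particle genes more so than the core ring genes. Of the 43 members 38 were lower, with a median difference of -0.33, against 53.8% lower and a median of -0.03 over all 15873 genes tested. By limma 0 members passed an adjusted p of 0.05 (background 0.0126% of all genes in either direction), and the smallest member value was 0.139. At an unadjusted p under 0.05, 17 members were lower (background 9.88%, and 23.5% of the top bin) and 0 were higher. In 14 members, or 32.6%, every Atg7KO-High array was below every WT-High array (background 15.2%). In the top bin that share was 32.3%, close to that of the members.

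The 11 core ring subunits had a median of -0.15, with 8 lower and 2 at unadjusted p under 0.05. The 17 regulatory particle subunits had a median of -0.50. All 17 were lower, 10 of them at unadjusted p under 0.05 and 8 without overlap of the arrays. All 17 lie in the top level bin. There 76.7% of genes were lower, 23.5% lower at unadjusted p under 0.05 and 32.3% lower without overlap. Within the regulatory particle the medians were -0.38 for the 6 ATPases, -0.62 for the 3 other base subunits and -0.42 for the 8 lid subunits. The 7 assembly chaperones had a median of -0.34, and the 5 activators and inhibitors one of -0.16. Psmd5, a chaperone of the base, had the lowest difference among the members at -0.86 (SE 0.31). Psmg4, a chaperone of the core, had the highest at 0.40 (SE 0.35).

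Psmd1, a scaffold subunit of the base, read 7.98, 7.61 and 8.24 in Atg7KO-High and 8.38, 8.90 and 8.74 in WT-High arrays. The difference was -0.73 (SE 0.19, limma adjusted p = 0.139). All knockout arrays lay below all wild-type arrays, with Atg7KO-High-356 lowest and WT-High-411 highest. Psmd2, the other scaffold subunit of the base, read 8.09, 8.03 and 8.19 in Atg7KO-High and 8.53, 8.93 and 8.72 in WT-High arrays. The groups did not overlap, and the difference was -0.62 (SE 0.18, limma adjusted p = 0.159). Psmd7, a lid subunit that pairs with the deubiquitinase Psmd14, read 8.91, 8.65 and 9.11 in Atg7KO-High and 9.18, 9.71 and 9.56 in WT-High arrays. These groups were also separate, with a difference of -0.59 (SE 0.19, limma adjusted p = 0.188).

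Catalytic core subunits analysed here are Psmb6 and Psmb7. Psmb6, with caspase-like activity, read 9.20, 9.43 and 9.63 in Atg7KO-High and 9.23, 9.54 and 9.66 in WT-High arrays. Its groups overlapped almost completely, and its difference of -0.06 (SE 0.17, limma adjusted p = 0.886) changed sign with the normalization. Psmb7, with trypsin-like activity, read 9.34, 9.15 and 9.51 in Atg7KO-High and 9.59, 9.95 and 9.62 in WT-High arrays. Its groups did not overlap, at a difference of -0.39 (SE 0.18, limma adjusted p = 0.305).

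Among the interferon-inducible members, Psmb10, which takes the place of Psmb7 in the immunoproteasome, read 9.12, 8.95 and 9.32 in Atg7KO-High and 9.41, 9.90 and 9.44 in WT-High arrays. Its groups did not overlap, at a difference of -0.45 (SE 0.17, limma adjusted p = 0.244). Psme1, a subunit of the interferon-inducible activator ring, read 11.24, 11.11 and 11.47 in Atg7KO-High and 11.53, 11.65 and 11.10 in WT-High arrays. Its partner Psme2 read 6.71, 6.36 and 6.06 in Atg7KO-High and 6.50, 6.22 and 6.39 in WT-High arrays. Both overlapped between genotypes, with differences of -0.16 (SE 0.19) for Psme1 and 0.01 (SE 0.21) for Psme2. The activator gene Psme4 was lower by limma's unadjusted test at -0.46 (SE 0.15, adjusted p = 0.197).

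The other members are given by role and by their difference between Atg7KO-High and WT-High. In the alpha ring only Psma1 had an unadjusted p under 0.05 by limma, at -0.47 (SE 0.18, adjusted p = 0.236). The other 5 alpha genes ran from -0.22 for Psma4 to 0.13 for Psma7, and all of them overlapped between genotypes. In the beta ring the structural subunits Psmb2, Psmb4 and Psmb1 stood at -0.33 (SE 0.16), -0.24 (SE 0.14) and 0.02 (SE 0.17).

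The ATPase genes ran from -0.57 for Psmc2 to -0.15 for Psmc6, and Psmc1 and Psmc3 showed no overlap between genotypes. The ubiquitin receptor gene Psmd4 was at -0.51 (SE 0.17, limma adjusted p = 0.199) without overlap. In the lid, Psmd12, Psmd11 and Psmd3 stood at -0.67 (SE 0.22), -0.57 (SE 0.19) and -0.55 (SE 0.23), while Psmd6 was at -0.06 (SE 0.18). The deubiquitinase gene Psmd14 was at -0.25 (SE 0.17) and overlapped between genotypes. Lid genes thus spanned -0.67 to -0.06.

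Among chaperones of the base, Psmd9 and Psmd10 were at -0.27 (SE 0.27) and -0.15 (SE 0.27), both with overlap, beside the -0.86 of Psmd5, which had none. Psmd5 read 5.06, 5.39 and 5.71 in Atg7KO-High and 5.93, 6.56 and 6.27 in WT-High arrays. The chaperones of the core Psmg1, Psmg2 and Psmg3 ran from -0.41 to -0.34, all with overlap. The nuclear activator gene Psme3 was at -0.16 (SE 0.17), and the inhibitor gene Psmf1 at -0.56 (SE 0.21, limma adjusted p = 0.228).

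Level and array spread moved with this difference, and their part in it was not tested. In the top bin all 3175 genes had a median difference of -0.24 with 76.7% lower, against a median of 0.13 in the lowest bin. The 35 members in the top bin had a median of -0.34 with 33 lower. The members' median was -0.10 with the array SD as a covariate, after a second quantile normalization it was -0.18 and after cyclic loess it was -0.16. Markers of several cell types also read lower in these knockout arrays, those of others did not, and none passed the adjusted limma threshold. Higher in the knockout were 4 of 6 stem cell genes, 3 of 5 enteroendocrine, 2 of 3 tuft and 3 of 3 stromal genes. Lower were 3 of 3 leukocyte and 3 of 4 interferon genes. The mean level of 5 Paneth cell genes was 8.42 to 9.70 in Atg7KO-High and 10.2 to 11.2 in WT-High arrays, with 5 of 5 lower. All 6 goblet cell genes were lower, at mean levels of 8.28 to 10.1 in Atg7KO-High and 9.76 to 10.3 in WT-High arrays. All 6 enterocyte genes were lower as well, at 7.78 to 8.14 in Atg7KO-High and 7.98 to 9.51 in WT-High arrays. All 4 general epithelial genes were lower, at 10.0 to 10.2 in Atg7KO-High and 10.3 to 10.4 in WT-High arrays. The mean of 4 proliferation genes was 9.22 to 9.46 in Atg7KO-High and 9.72 to 9.90 in WT-High arrays. The part of these cells in the members' values was not tested, and in sorted bulk samples fewer cells of a type and less RNA per cell cannot be told apart.

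**Figure D1:**
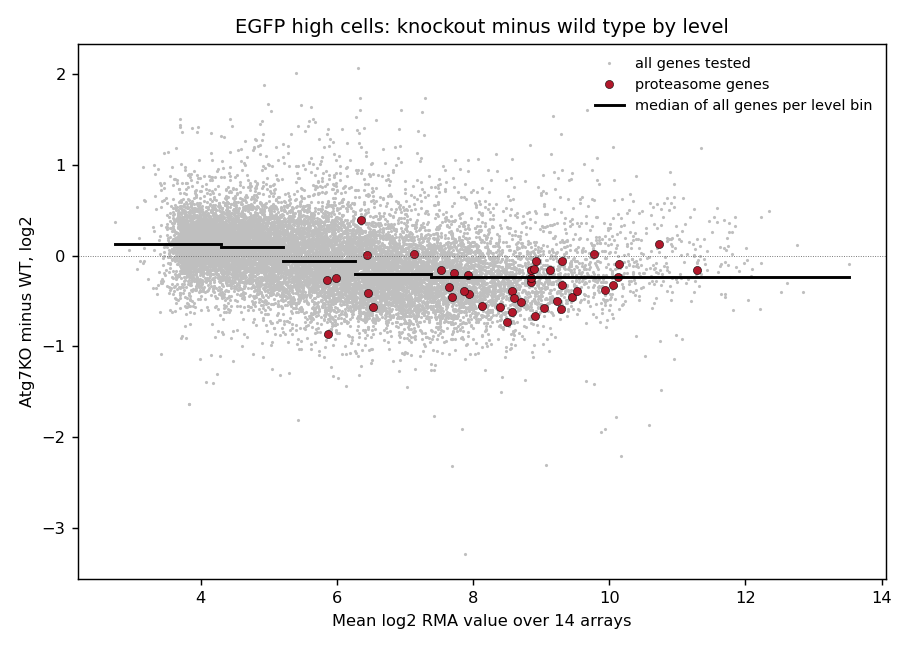
The vertical axis gives Atg7KO minus WT in EGFP high cells (log2) and the horizontal axis the mean log2 value over the 14 arrays, with grey points for the 15873 tested genes, red points for the 43 proteasome genes and black lines for the median of all genes in each of 5 level bins. The lines lie at 0.13 in the lowest bin and at -0.24 in the highest, where 35 of the 43 proteasome genes lie.

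The second comparison set Atg7KO against WT in the EGFP low gate. Here most members read slightly higher in the knockout, and no role group stood at a negative median. Of the 43 members 37 were higher, with a median of 0.17, against 50.3% higher and a median near 0 over all genes. By limma 0 members passed the adjusted threshold (background 0.0063%), with a smallest adjusted p of 0.591. At an unadjusted p under 0.05, 5 members were higher (background 3.86%, and 6.9% of the top bin): Psmf1, Psmb1, Psmg2, Psmd3 and Psmg1. The median was 0.17 for the core rings, 0.16 for the regulatory particle and 0.34 for the assembly chaperones. All genes in the top level bin had a median of 0.06 with 60.3% higher in this gate. Interferon genes moved with this comparison, with 4 of 4 higher and a mean level of 5.60 to 6.02 in Atg7KO-Low and 5.39 to 5.68 in WT-Low arrays. Paneth genes ran the other way, with 5 of 5 lower, at 10.3 to 11.0 in Atg7KO-Low and 10.8 to 11.8 in WT-Low arrays. All 6 goblet genes were lower too, at 10.9 to 11.3 in Atg7KO-Low and 11.2 to 11.8 in WT-Low arrays. None of these markers passed the adjusted limma threshold, and their part in the members' values was not tested.

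Psmf1, a proteasome inhibitor in cell-free assays, read 6.87, 7.20, 6.58 and 6.87 in Atg7KO-Low and 6.55, 6.38, 6.49 and 6.02 in WT-Low arrays. All knockout arrays lay above all wild-type arrays, with a difference of 0.52 (SE 0.18, limma adjusted p = 0.591). Psmb1, a beta subunit without catalytic activity, read 10.13, 9.88, 9.82 and 10.13 in Atg7KO-Low and 9.69, 9.65, 9.46 and 9.71 in WT-Low arrays. Its groups did not overlap, at 0.36 (SE 0.14, limma adjusted p = 0.657). Psmg2, a chaperone of alpha ring assembly, read 6.70, 7.39, 6.32 and 6.26 in Atg7KO-Low and 6.34, 6.25, 5.84 and 5.80 in WT-Low arrays. Its groups overlapped, at 0.61 (SE 0.24, limma adjusted p = 0.657).

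The catalytic and interferon-inducible members all read higher on average in Atg7KO-Low, and none passed the test. Psmb6 read 9.30, 9.00, 9.38 and 9.34 in Atg7KO-Low and 9.09, 9.34, 9.07 and 9.11 in WT-Low arrays. Psmb7 read 9.58, 9.86, 9.57 and 9.29 in Atg7KO-Low and 9.56, 9.65, 9.40 and 9.26 in WT-Low arrays. Psmb10 read 9.63, 9.53, 9.60 and 9.74 in Atg7KO-Low and 9.69, 9.20, 9.44 and 9.38 in WT-Low arrays. The groups overlapped in all 3 of these genes. Psme1 read 11.07, 11.36, 11.50 and 11.41 in Atg7KO-Low and 11.39, 11.32, 10.88 and 11.08 in WT-Low arrays. Psme2 read 6.42, 6.54, 7.05 and 6.45 in Atg7KO-Low and 6.51, 6.01, 6.49 and 6.40 in WT-Low arrays. The 5 differences ran from 0.10 for Psmb6 to 0.26 for Psme2, with limma adjusted p between 0.783 and 0.911.

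**Figure D2:**
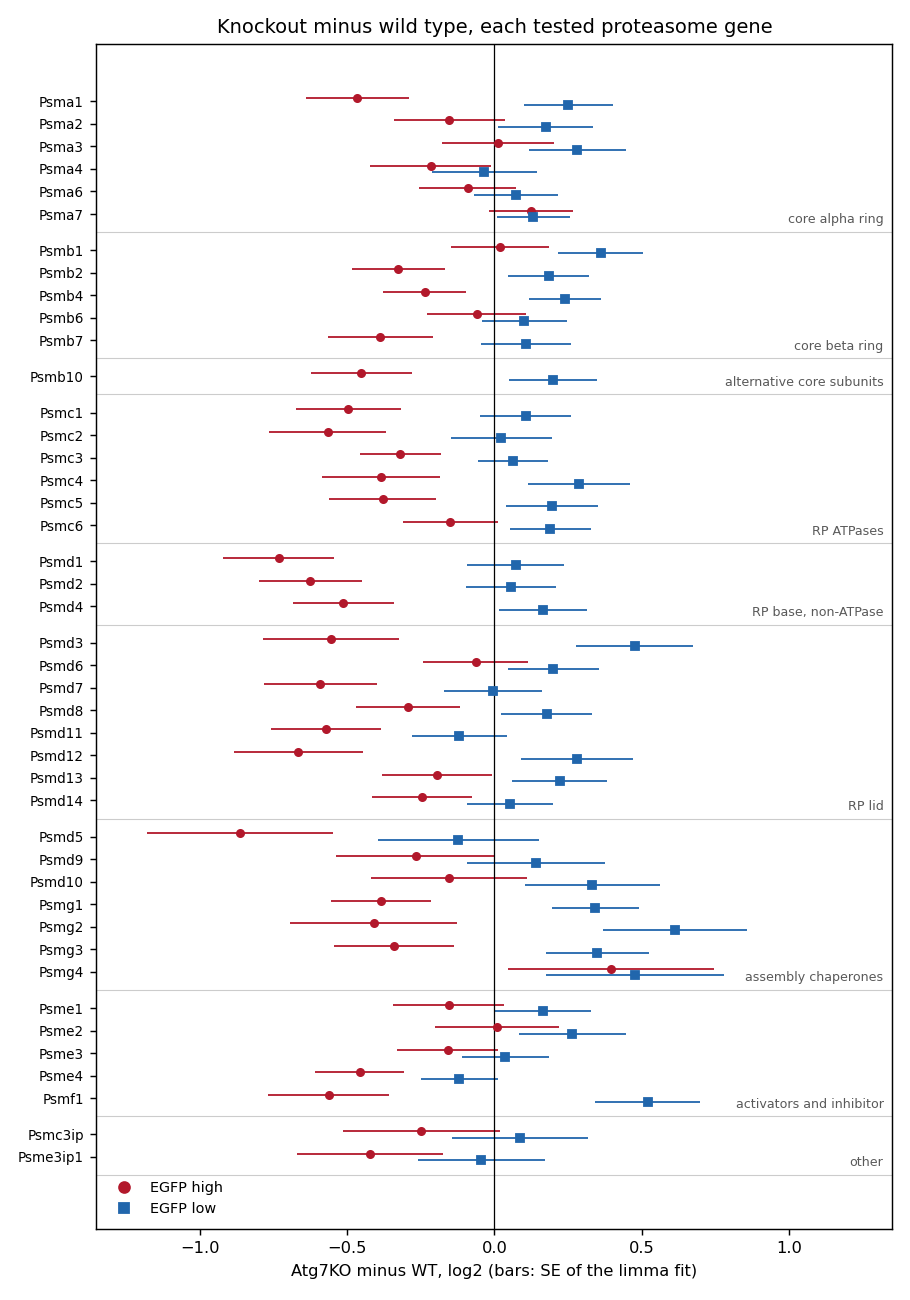
Each row is a tested proteasome gene, grouped by role, with Atg7KO minus WT (log2) on the horizontal axis, red circles for EGFP high, blue squares for EGFP low and bars for the SE of the limma fit. The EGFP high values lie below 0 for 38 of 43 genes and the EGFP low values above 0 for 37 of 43.

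The next comparison set EGFP high against EGFP low cells within the Atg7KO genotype, and it is the only one in which members passed the test. By limma 7 of the 43 members fell in the high gate at adjusted p under 0.05, against 6.44% of all genes that fell, and 0 rose, against 4.48% of all genes. The 7 are 16.3% of the tested members, and among all genes of the top level bin 14.4% fell, so the members' share was near that of genes of their level. They were the alpha subunit gene Psma1, the base genes Psmc2, Psmd1 and Psmd2, the lid genes Psmd8 and Psmd12, and the inhibitor gene Psmf1. Over the 43 members 40 were lower, the median was -0.34, and 18 had no overlap between the arrays (background 11.8%, and 26.5% of the top bin). The 17 regulatory particle subunits had a median of -0.47 with 5 called, and the 11 core ring subunits one of -0.24 with 1 called. All genes in the top level bin had a median of -0.19 with 67.6% lower in this comparison.

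Psma1 read 8.17, 8.03 and 8.33 in Atg7KO-High and 8.89, 9.12, 8.92 and 8.56 in Atg7KO-Low arrays. It fell by 0.70 (SE 0.16, limma adjusted p = 0.0153), with no overlap. Psmc2, an ATPase of the base, read 7.91, 7.52 and 8.16 in Atg7KO-High and 8.47, 8.32, 8.86 and 8.73 in Atg7KO-Low arrays. It fell by 0.73 (SE 0.18, limma adjusted p = 0.0216), again with no overlap and with Atg7KO-High-356 lowest.

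Psmd1 read 8.74, 8.41, 8.73 and 8.85 in Atg7KO-Low arrays, all above its 3 Atg7KO-High values given earlier. It fell by 0.74 (SE 0.18, limma adjusted p = 0.0169). Psmd2 read 9.05, 8.68, 8.40 and 8.72 in Atg7KO-Low arrays, also all above its Atg7KO-High values, and fell by 0.61 (SE 0.16, limma adjusted p = 0.0284). Psmf1 read 5.90, 6.00 and 6.51 in Atg7KO-High arrays. These lay below its lowest Atg7KO-Low value of 6.58, and the fall was 0.74 (SE 0.19, limma adjusted p = 0.0244).

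Among lid genes, Psmd12 read 8.08, 8.28 and 8.90 in Atg7KO-High and 9.15, 8.98, 9.51 and 9.03 in Atg7KO-Low arrays. The groups did not overlap, though Atg7KO-High-386 lay near the low gate, and Psmd12 fell by 0.75 (SE 0.20, limma adjusted p = 0.0310). Psmd8 read 8.39, 8.38 and 8.79 in Atg7KO-High and 8.98, 8.96, 9.11 and 9.21 in Atg7KO-Low arrays. It fell by 0.54 (SE 0.17, limma adjusted p = 0.0485) without overlap. The next members by p, which did not pass, were Psme4 at -0.45 (SE 0.14, limma adjusted p = 0.0541) and the ubiquitin receptor gene Psmd4 at -0.51 (SE 0.16, limma adjusted p = 0.0565).

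**Figure D3:**
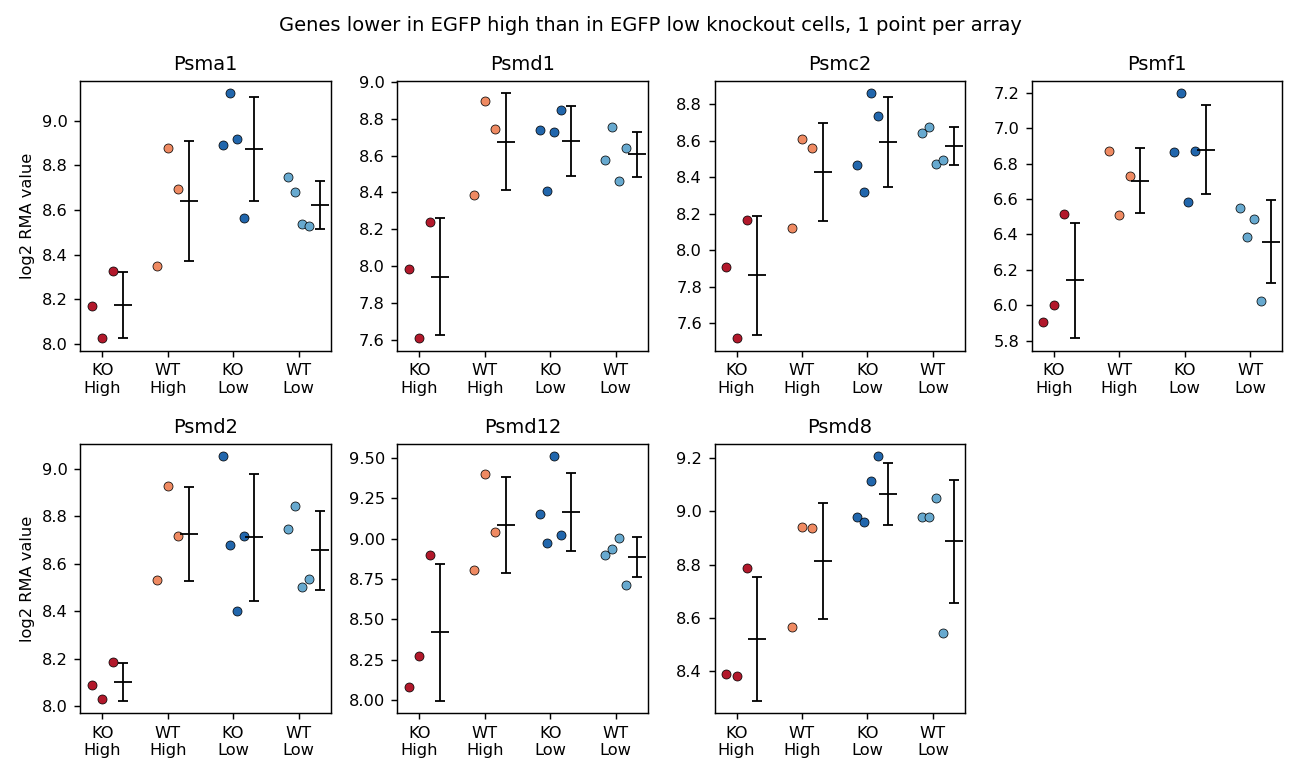
Each panel shows the log2 value of 1 gene on each array by group, with the mean and SD beside the points, for the 7 genes that fell in knockout EGFP high against knockout EGFP low cells. In every panel the 3 Atg7KO-High points lie below the 4 Atg7KO-Low points.

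Of the catalytic genes, Psmb6 ran against the rest, with a difference of 0.16 (SE 0.16, limma adjusted p = 0.545). Psmb7 was at -0.24 (SE 0.17) and Psmb10 at -0.49 (SE 0.16), with limma adjusted p of 0.378 and 0.0639. The activator ring genes Psme1 and Psme2 were at -0.06 (SE 0.18) and -0.24 (SE 0.20). Without Atg7KO-High-356, or without Atg7KO-High-348, 0 members were called. The differences of the 7 genes were then -0.68 to -0.48 without Atg7KO-High-356 and -0.76 to -0.48 without Atg7KO-High-348, with limma adjusted p of 0.0709 to 0.167 and 0.0506 to 0.161. With only the compared groups in the fit the differences were the same by construction and 1 was called, Psma1. In a fit with array SD as a covariate 0 were called and the differences were -0.58 to -0.28. Markers of several differentiated cell types were lower in this gate comparison too, while those of tuft and stem cells were higher. All 3 tested tuft genes were higher and 1 passed limma's adjusted threshold (background 4.48% higher). All 6 stem cell genes were higher and 5 passed. All 6 goblet genes were lower, and all 6 passed limma's adjusted threshold (background 6.44% lower). Their mean levels were 8.28 to 10.1 in Atg7KO-High and 10.9 to 11.3 in Atg7KO-Low arrays. All 5 Paneth genes were lower and 3 passed, at 8.42 to 9.70 in Atg7KO-High and 10.3 to 11.0 in Atg7KO-Low arrays. All 6 enterocyte genes were lower and 5 passed, at 7.78 to 8.14 in Atg7KO-High and 9.10 to 10.4 in Atg7KO-Low arrays. All 5 enteroendocrine genes were lower and 3 passed, at 6.62 to 8.67 in Atg7KO-High and 8.53 to 9.77 in Atg7KO-Low arrays. The part of these cell types in the members' values was not tested.

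In WT mice the same gates were compared, and proteasome genes read slightly higher in the EGFP high gate. Of the 43 members 35 were higher with a median of 0.16, against 54.7% higher over all genes, and by limma 0 passed the adjusted threshold (background 2.44%). At an unadjusted p under 0.05, 2 members, or 4.65%, were higher and 0 lower, a share below the background of 8.88% higher. All 7 assembly chaperones were higher, with a median of 0.37, while the core rings had a median of 0.09 and the regulatory particle one of 0.11. Without WT-High-411 the members' median was 0.04, with 19 of the 43 lower. The core ring and regulatory particle medians were then -0.008 and -0.002. All genes in the top level bin had a median of 0.11 with 64.6% higher. All 6 goblet genes were lower in this gate as well, and 4 passed limma's adjusted threshold (background 1.22% lower). Their mean levels were 9.76 to 10.3 in WT-High and 11.2 to 11.8 in WT-Low arrays. All 5 enteroendocrine genes were lower and 2 passed, at 7.34 to 7.77 in WT-High and 8.66 to 9.50 in WT-Low arrays. All 5 Paneth and 6 enterocyte genes were lower, with 0 passing limma's adjusted threshold. At unadjusted p under 0.05 were 2 Paneth and 4 enterocyte genes (background 5.91% lower). Other lists were higher. All 6 stem cell genes were higher and all 6 passed limma's adjusted threshold (background 1.22% higher). All 4 proliferation genes were higher, with 0 passing and 2 at unadjusted p under 0.05 (background 8.88% higher). The part of these genes and cells in the WT gate values was not tested.

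Psmg1, the partner of Psmg2 in alpha ring assembly, read 7.86, 8.40 and 8.17 in WT-High and 7.83, 7.71, 7.49 and 7.51 in WT-Low arrays. The groups did not overlap, at a difference of 0.50 (SE 0.16, limma adjusted p = 0.123). Psmg2 read 6.54, 6.84 and 6.95 in WT-High arrays, all above its WT-Low values given earlier. The difference was 0.72 (SE 0.26, limma adjusted p = 0.193). Psmb4, a beta subunit without catalytic activity, read 10.06, 10.55 and 10.20 in WT-High and 10.00, 10.03, 9.98 and 9.96 in WT-Low arrays. It did not overlap either, at 0.28 (SE 0.13, limma adjusted p = 0.345).

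Between the WT gates the catalytic and interferon-inducible genes differed by 0.32 (SE 0.16) for Psmb6, 0.25 (SE 0.17) for Psmb7, 0.16 (SE 0.16) for Psmb10, 0.26 (SE 0.18) for Psme1 and 0.02 (SE 0.20) for Psme2. None passed the limma test, with adjusted p between 0.355 and 0.981.

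**Figure D4:**
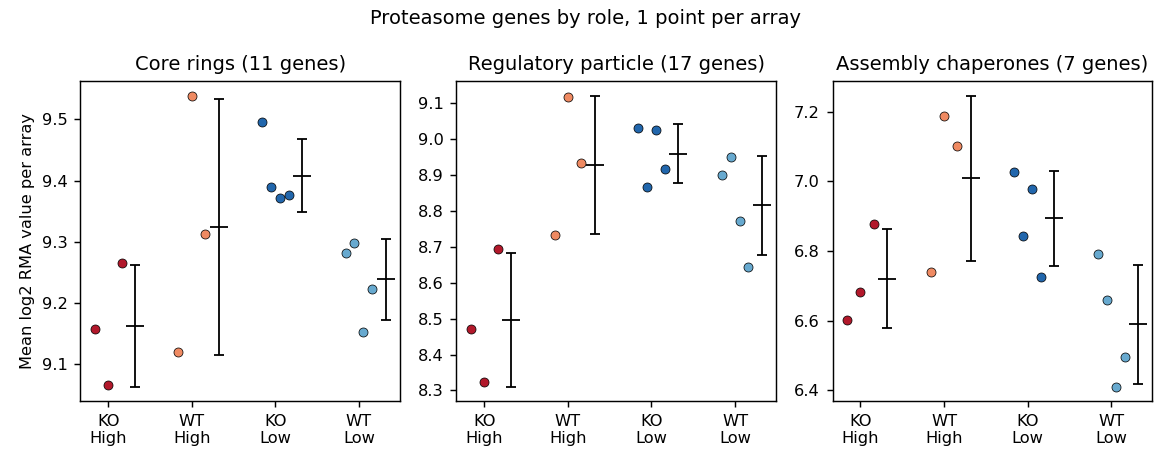
Each point is the mean log2 value of a role group on 1 array, with the group mean and SD beside the points, for core rings, regulatory particle and assembly chaperones. The Atg7KO-High regulatory particle means of 8.32 to 8.70 lie below all WT-High means of 8.73 to 9.12, while the core ring and assembly means of these groups overlap.

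The knockout difference in the EGFP high gate was then set against that in the EGFP low gate, which asks whether Atg7 loss had a different association with proteasome genes in the 2 gates. All 43 tested members had a more negative difference in the high gate, against 52.9% of all genes and 77% of the top level bin. The members' median was -0.47, against -0.03 over all genes and -0.30 over the top level bin. By limma 0 members passed the adjusted threshold (background 0.0063%), and the smallest adjusted p was 0.202. At an unadjusted p under 0.05, 18 members were on the negative side (background 8.49%, and 20.3% of the top bin). The contrast uses the same arrays as the comparisons before it and adds no independent samples. Of the 43 members 32, or 74.4%, were lower in the high gate and higher in the low gate, a pattern found in 29.3% of all genes. The share with both signs is not given for the top bin. There 76.7% of genes were lower in the high gate and 60.3% higher in the low gate.

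Psmf1 had a knockout difference of -0.56 in the high gate and 0.52 in the low gate, which differ by -1.08 (SE 0.27, limma adjusted p = 0.202). The lid gene Psmd3 had -0.55 in the high and 0.48 in the low gate, a difference of -1.03 (SE 0.30, limma adjusted p = 0.226). It read 7.64, 7.72 and 8.09 in Atg7KO-High and 8.41, 8.45 and 8.26 in WT-High arrays, which did not overlap. In the low gate it read 8.54, 8.08, 8.69 and 8.32 in Atg7KO-Low and 8.31, 8.24, 7.74 and 7.44 in WT-Low arrays, which did. Psmd12 had -0.67 in the high and 0.28 in the low gate, a difference of -0.94 (SE 0.29, limma adjusted p = 0.242).

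The balance within the complex was read from each array as the mean of the 11 core ring genes minus that of the 17 regulatory particle genes. It was 0.69, 0.74 and 0.57 in Atg7KO-High and 0.39, 0.42 and 0.38 in WT-High arrays. It was 0.46, 0.52, 0.35 and 0.46 in Atg7KO-Low and 0.38, 0.35, 0.38 and 0.58 in WT-Low arrays. The Atg7KO-High arrays lay above the WT-High arrays without overlap. The WT-Low array at 0.58 was WT-Low-411, whose spread was the narrowest after Atg7KO-High-356, so array spread moved with this measure and its part was not tested. As medians over genes, the EGFP high knockout differences of the core rings and the regulatory particle were -0.05 and -0.18 with the array SD as a covariate. They were -0.02 and -0.31 after a second quantile normalization, and 0.06 and -0.29 after cyclic loess.

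**Figure D5:**
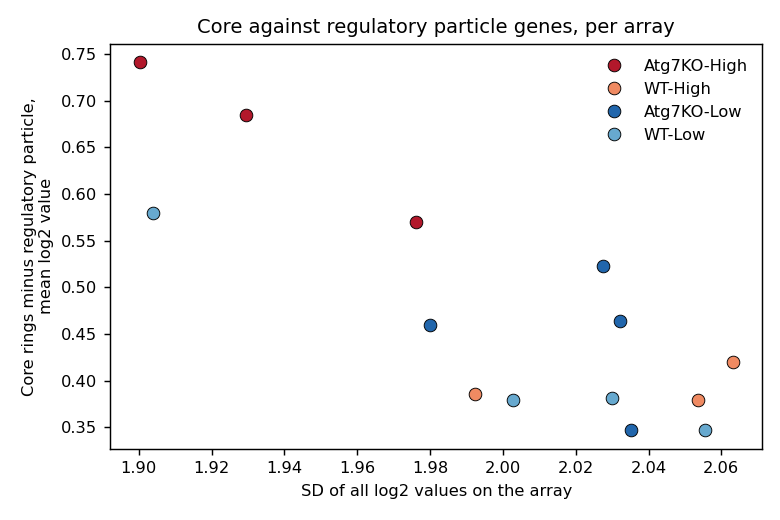
The vertical axis is the mean log2 value of core ring genes minus that of regulatory particle genes on each array, the horizontal axis is the SD of all log2 values on that array, and colours mark the 4 groups. The 3 Atg7KO-High arrays lie between 0.57 and 0.74 and the 3 WT-High arrays between 0.38 and 0.42, and the arrays of narrow spread are among the highest.

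Single arrays carried much of the ordering. Atg7KO-High-356 held the lowest value of 18 of the 43 tested members, and WT-High-411 the highest of 14. The share of all genes with an extreme on these arrays is not given here. Over all genes of the top level bin the array mean was also lowest on Atg7KO-High-356 (8.25) and highest on WT-High-411 (8.62). That mean was 8.25 to 8.46 in Atg7KO-High and 8.48 to 8.62 in WT-High arrays. The mean over the tested members was 8.24, 8.13 and 8.40 in Atg7KO-High, and 8.40, 8.75 and 8.58 in WT-High arrays. The groups overlapped at Atg7KO-High-386 and WT-High-388. In the low gate it was 8.66, 8.56, 8.63 and 8.52 in Atg7KO-Low, and 8.50, 8.49, 8.35 and 8.31 in WT-Low arrays, with no overlap between genotypes.

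Other genes of the pathway were set beside the members in 3 lists. Of 9 tested proteasome-associated genes all 9 were lower in Atg7KO-High than in WT-High, with a median of -0.31. By limma 0 passed the adjusted threshold (background 0.0126%), while 4 had an unadjusted p under 0.05. Of all genes 53.8% were lower, with 9.88% lower at an unadjusted p under 0.05. In the top level bin these shares were 76.7% and 23.5%, and the median was -0.24. The proteasome-associated genes with the smallest p were the proteasome-bound deubiquitinases Uchl5 at -0.57 (SE 0.21) and Usp14 at -0.53 (SE 0.22). Pomp, the maturation chaperone of the core, was at -0.31 (SE 0.20). Of 12 genes that supply or deliver ubiquitinated substrates 11 were lower, with a median of -0.36. Vcp, the ATPase that extracts ubiquitinated proteins from membranes and complexes, was at -1.05 (SE 0.27, limma adjusted p = 0.133). In the knockout gate comparison Vcp fell by 0.97 (SE 0.25, limma adjusted p = 0.0228). Its cofactor Ufd1 fell by 0.59 (SE 0.16, limma adjusted p = 0.0302), and the autophagy receptor gene Sqstm1 fell by 0.56 (SE 0.13, limma adjusted p = 0.0171).

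Sqstm1 read 6.76, 6.62 and 7.00 in Atg7KO-High and 7.20, 7.28, 7.51 and 7.42 in Atg7KO-Low arrays, and the groups did not overlap. Of 7 tested genes of transcriptional control 4 were lower in Atg7KO-High than in WT-High. Nfe2l1 read 7.15, 6.80 and 7.40 in Atg7KO-High and 7.40, 7.51 and 7.38 in WT-High arrays. Its groups overlapped, at -0.32 (SE 0.18, limma adjusted p = 0.407). Its relative Nfe2l2, the regulator of antioxidant genes, was at -0.43 (SE 0.19, limma adjusted p = 0.291). Their relative Nfe2l3 stood on the other side at 0.55 (SE 0.20, limma adjusted p = 0.226).

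Large complexes other than the proteasome did not all have the same median. The 61 tested ribosomal protein genes had a median of 0.08 in Atg7KO-High against WT-High, with 25 lower. The 8 genes of the chaperonin CCT, which folds actin and tubulin, stood at a median of -0.34 with 8 of 8 lower. Beside these stands the proteasome members' median of -0.33. In the knockout gate comparison the medians were -0.34 for the proteasome, -0.04 for CCT and 0.04 for the ribosomal proteins. For Atg7KO against WT in the EGFP low gate they were 0.17, 0.08 and 0.19 in the same order, with 48 of 61 ribosomal protein genes higher. Between the WT gates they were 0.16, 0.38 and 0.12. For the difference between gates they were -0.47, -0.41 and -0.10, and all 8 CCT genes were negative there.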

How the data were processed

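The authors deposited 1 log2 value for each probe set of an array. Per the submitters' processing notes, Expression Console and RMA were used. Their versions, and how probes were grouped, are not given in the sources used. RMA background-corrects, quantile normalizes and summarises probes, which assumes that most genes do not differ, and it can narrow large differences. The deposited values lay between 1.65 and 13.8, and array medians between 4.30 and 4.49. Precision is limited by the number of arrays.

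Of 25429 probe sets 24675 had 1 symbol in the platform annotation and 754 were left out as unnamed. Group means over all 14 arrays were fitted in R 4.3.3 by lmFit and eBayes of limma 3.58.1, leaving 10 residual degrees of freedom. The 5 contrasts were tested, two-sided, with Benjamini-Hochberg adjustment over 15873 genes, and a call is an adjusted p under 0.05. The fit was tested on simulated data. Called genes up to the 6 with the smallest p (the 3 smallest where none was called), and the catalytic and interferon-inducible subunits, were to be given on every array. Psmd8, the 7th call, is given as well. The members and lists were chosen with earlier results of these data known. Other normalizations, filters, weights, covariates and left-out arrays were tried. The title numbers 356, 386 and 411 occur in 2 groups each. Deviations from the group means correlated at 0.11, 0.18 and -0.04 within these pairs, and the main fit has no block for them.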

Additional observations from a re-analysis of the deposited data

Results flagged for a closer look

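The mean of the core ring genes on Atg7KO-Low-353 was 9.50, against 9.37 to 9.39 on the other Atg7KO-Low arrays. It was looked at again because its gap to the nearest array passed the limit of Dixon's outlier test. Psmb6 on WT-Low-407, at 9.34, passed the same limit, with the other WT-Low arrays at 9.07 to 9.11. In all, 42 groups were screened this way, and chance flags about 1 in 20.

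Psmb4 differed between the gates in opposite directions in the 2 genotypes, with no overlap in either. It read 10.00, 10.00 and 10.11 in Atg7KO-High against 10.20, 10.26, 10.31 and 10.15 in Atg7KO-Low arrays, and in WT mice all EGFP high arrays were above all EGFP low arrays. The test of the difference between these effects gave -0.47 (SE 0.19, limma adjusted p = 0.297).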

How the results depend on the processing

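In all, 25 alternatives were run, 14 of them leaving out 1 array each. Called members of the knockout gate comparison numbered 7, against 2 after a second quantile normalization, 4 after cyclic loess, 1 with only the compared groups fitted, 0 with the array SD as a covariate and 0 without the 2 arrays of narrowest spread. Leaving out 1 array gave 0 to 9, with 0 without Atg7KO-High-356 or Atg7KO-High-348 and 4 without Atg7KO-Low-387 or Atg7KO-Low-386. The calls over all tested genes moved too. They ranged from 433 lower without Atg7KO-High-356 to 1251 without WT-Low-411, against 1023 in the main fit. With array weights, 7 members were called lower in knockout EGFP high against wild type, and 1 (Psmg1) higher in WT EGFP high against low. The share of all genes called in that fit is not given here, so these counts have no background. Under quantile, loess and SD settings the members' medians were -0.18, -0.16 and -0.10 for Atg7KO against WT EGFP high cells, -0.17, -0.19 and -0.18 between the knockout gates, and -0.27, -0.20 and -0.21 for the difference between gates. Leaving out 1 array gave medians of -0.42 to -0.23, 0.13 to 0.20 in EGFP low, 0.04 to 0.25 between WT gates, -0.44 to -0.26 between knockout gates and -0.56 to -0.39. The cause of these shifts was not tested.

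Signs turned in genes near 0. In EGFP high knockout against wild type, Psmb6 was 0.064 (quantile), 0.15 (loess) and 0.11 (array SD), and -0.18 to 0.051 without 1 array. Psme1 was 0.00381 (loess). Psme2 was -0.094 (median centring) and -0.14 (array SD), and -0.16 to 0.17 without 1 array. The core ring median was 0.063 (loess). In EGFP low, Psmb6 was -0.00148 (quantile). Between WT gates, Psme2 was -0.063 (quantile), -0.071 (loess) and -0.096 to 0.093 without 1 array, and Psmb10 was -0.00102 to 0.25, with the lowest without WT-High-411. Without that array the core ring and regulatory particle medians between WT gates were -0.008 and -0.002. Between knockout gates, Psme1 was 0.00417 (quantile), 0.17 (loess), 0.050 (array SD) and 0.021 without the 2 narrowest arrays, and -0.16 to 0.021 without 1 array, with the highest without Atg7KO-High-356. Psmb7 was 0.035 (array SD).

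With the title number as a replicate block (correlation 0.0732), 8 members were called between the knockout gates, and the members' medians were -0.33, 0.18, -0.35 and -0.48 for Atg7KO against WT in the high and low gates, the knockout gates and the difference between gates. The fit on only the groups compared was not run for the last. Signal near background limits Psma5, Psma8 and Psmb11, which were not tested.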
